A study of Mus musculus with 9 samples.

Results

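The genes described are 9 nuclear genes that encode enzymes or enzyme subunits of the Krebs cycle in the mitochondrial matrix. They are Cs, Idh2, Idh3a, Idh3b, Idh3g, Ogdh, Sucla2, Suclg1 and Mdh2. They were taken as the rows whose mouse Ensembl identifier carries one of these symbols in the GENCODE annotation. All 9 were found among the 53465 gene identifiers of each file, and all 9 were among the 13825 genes that passed the filter on low counts.

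The Krebs cycle oxidises the acetyl group of acetyl-CoA to carbon dioxide and passes the electrons to the respiratory chain as NADH and as reduced flavin. Acetyl-CoA reaches it from fatty acids and, through the pyruvate dehydrogenase complex, from glucose and lactate. Heart muscle is packed with mitochondria, draws most of its ATP from this route and normally burns mainly fatty acids.

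RNA was sequenced from the infarct border zone of NOD-SCID mouse hearts, and all groups share this immunodeficient strain. The sham group (3 libraries) had sham surgery. The ligation group (3 libraries) had a coronary artery tied off, which stops blood flow to part of the ventricle. The cell group (3 libraries) had the ligation and received FOXO3-GE-MPCs, an abbreviation that the labels do not spell out. Age, sex and the time after surgery are not given in the labels, and border zone is the label of the sham hearts too. Nothing in the labels says that the libraries came from separate animals, so the p-values measure the spread between these samples, which may be technical. The source field of cell libraries 2 and 3 names FOXO4 and FOXO5 in place of FOXO3, and the titles and treatment field, which name FOXO3, were followed.

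Libraries held 4549268 to 7515052 gene counts, and each of the 9 genes had 1419 to 12799 counts per library. The coefficient of variation of the 9 genes within a group ran from 0.392% to 6.36%, with a median of 2.14%. The file headers of sham libraries 1 and 2 share a name stem, as do those of ligation libraries 2 and 3. Every pair of replicates differed by more than sampling noise, which does not show whether they came from separate animals. The mean chi-square per gene between replicates ran from 1.93 to 3.73. It was 3.73 for sham libraries 1 and 2 and 2.23 for ligation libraries 2 and 3. Cardiomyocyte markers, 10 genes such as Myh6 and Tnnt2, summed to 55816 to 57519 CPM (counts scaled to a common library size, here with TMM factors) in sham, 41856 to 43626 in ligation and 41141 to 42026 in the cell group. The tissue label thus had its defining transcripts, and none of the markers listed for any cell type was at 0 in all libraries. Mitochondrially encoded genes took 19.1% to 19.9% of gene counts in sham, 12.5% to 13.9% in ligation and 14.3% in each library of the cell group.

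After ligation, 6 of the 9 Krebs cycle genes were lower than in sham and none was higher by edgeR's quasi-likelihood test at an adjusted p under 0.05. Idh2 changed most and fell by 35.2%. Suclg1, Idh3b and Mdh2 followed, and Idh3g and Idh3a fell least. Cs, Ogdh and Sucla2 did not pass the test. Of all 13825 genes tested, 18.0% were lower, 20.1% were higher and 38.2% changed in either direction. Among the 384 genes whose mean CPM was at least that of the lowest of the 9 genes, 54.7% were lower, so that 6 of 9 lies near the share among genes of similar abundance. The median log2 fold change of the 9 genes was -0.25, against 0.01 over all genes tested. In this bulk RNA, fewer cells of a type and less RNA per cell cannot be told apart.

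The levels in the 3 groups are taken in the order of the reactions. Citrate synthase, encoded by Cs, condenses acetyl-CoA with oxaloacetate and is widely used as a measure of mitochondrial content. Cs lies on chromosome 10 (128337734 to 128362479, plus strand, mm10). It was at 855, 889.8 and 869 CPM in the sham libraries, 812, 810.2 and 831 in ligation, and 822, 813 and 817 in the cell group. Every ligation and cell library lay below every sham library, by a small margin. The fitted difference between ligation and sham was -0.09 ± 0.04 (log2, SE), with a 95% interval from -0.17 to -0.01 and an adjusted p of 0.0604 by edgeR, so Cs did not pass. Scaled by library totals alone, the difference was +0.10 with adjusted p = 0.047, the opposite direction. DESeq2 (adjusted p = 0.0287) and limma-voom (adjusted p = 0.0257) placed Cs past the threshold as lower, as did the edgeR fit with RLE size factors (0.0415), with mitochondrially encoded genes removed (0.0178), with the first cell library alone (0.0494) and without ligation library 3 (0.0286).

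Isocitrate dehydrogenase exists in the matrix in an NADP-dependent form, Idh2, and an NAD-dependent form built from the Idh3a, Idh3b and Idh3g subunits. Idh2 makes NADPH, which serves antioxidant defence, and Idh3 catalyses a regulated step of the cycle. Idh2 lies on chromosome 7 (80094846 to 80115392, minus strand). Its level was 1993, 2109 and 2009 CPM in sham, 1309.5, 1346 and 1303 in ligation, and 1346, 1337 and 1319 in the cell group. The sham libraries stood far above the other groups, which overlapped each other. The ligation to sham log2 fold change was -0.63 ± 0.04 (SE), with adjusted p = 1.36e-11 by edgeR.

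Of the NAD-dependent enzyme, Idh3a encodes the catalytic subunit and lies on chromosome 9 (54586334 to 54604661, plus strand). Its level was 567, 576 and 595 CPM in sham, 507, 503 and 469 in ligation, and 528, 548 and 543 in the cell group. The cell libraries lay between the other groups with no overlap on either side. Against sham, ligation gave a log2 fold change of -0.23 ± 0.04 (SE), adjusted p = 2.40e-04 by edgeR, a call that library totals alone did not keep (-0.05, adjusted p = 0.384).

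Idh3b, which pairs with the catalytic subunit, lies on chromosome 2 (130279309 to 130284547, minus strand) and overlaps Nop56 on the other strand by 5 bases. It was at 825, 845 and 842 CPM in sham, 614, 596 and 572 in ligation, and 656, 609.9 and 630.4 in the cell group. Sham was clear of both other groups, and ligation and cell libraries overlapped. The change with ligation was -0.50 ± 0.04 (log2, SE), so that it fell by 29.1%, with adjusted p = 8.90e-09 by edgeR.

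Idh3g, the subunit that binds the allosteric activators citrate and ADP, lies on the X chromosome (73778963 to 73786897, minus strand). Its values were 458, 472 and 463 CPM in sham, 391, 393 and 390.3 in ligation, and 409, 372 and 403 in the cell group. The ligation libraries were nearly identical and fell inside the range of the cell libraries. Ligation changed Idh3g by -0.25 ± 0.05 (log2, SE) with adjusted p = 2.33e-04 by edgeR, and with library totals alone it no longer passed (-0.06, adjusted p = 0.336).

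Ogdh encodes the E1 subunit of the 2-oxoglutarate dehydrogenase complex, which turns 2-oxoglutarate into succinyl-CoA, and lies on chromosome 11 (6291633 to 6356642, plus strand). It was at 1258, 1359.6 and 1261 CPM in sham, 1224, 1271 and 1271 in ligation, and 1309, 1282 and 1329.8 in the cell group. Sham and ligation overlapped. The difference between ligation and sham was -0.04 (95% interval -0.12 to 0.04; adjusted p = 0.420 by edgeR) and turned to +0.15 with adjusted p = 0.00578 under library totals alone.

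Succinyl-CoA ligase turns succinyl-CoA into succinate while making ATP or GTP. Suclg1 encodes the alpha subunit that both forms share, and Sucla2 the beta subunit of the ATP-forming enzyme. Sucla2 lies on chromosome 14 (73525319 to 73596142, plus strand). It was at 436, 402 and 439 CPM in sham, 441, 403 and 409 in ligation, and 446, 455 and 448 in the cell group. Sham and ligation covered nearly the same range. Their difference was -0.03 (95% interval -0.13 to 0.07; adjusted p = 0.684 by edgeR), and it was +0.16 with adjusted p = 0.00821 under library totals alone.

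Suclg1, on chromosome 6 (73248382 to 73276911, plus strand), behaved otherwise. Its level was 419, 434 and 423 CPM in sham, 302, 313 and 276 in ligation, and 268, 292 and 279 in the cell group. Sham was clear of both other groups. Ligation changed Suclg1 by -0.52 ± 0.05 (log2, SE), so that it fell by 30.2%, with adjusted p = 1.03e-07 by edgeR.

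Mdh2 encodes the mitochondrial malate dehydrogenase, which closes the cycle by oxidising malate to oxaloacetate and also serves the malate-aspartate shuttle. It lies on chromosome 5 (135778480 to 135790398, plus strand). Mdh2 was at 1252, 1319 and 1262 CPM in sham, 987, 1012 and 973 in ligation, and 992, 939 and 978 in the cell group. Every sham library was higher than every other library. The change with ligation was -0.37 ± 0.04 (log2, SE), so that it fell by 22.5%, with adjusted p = 1.64e-07 by edgeR.

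**Figure D1:**
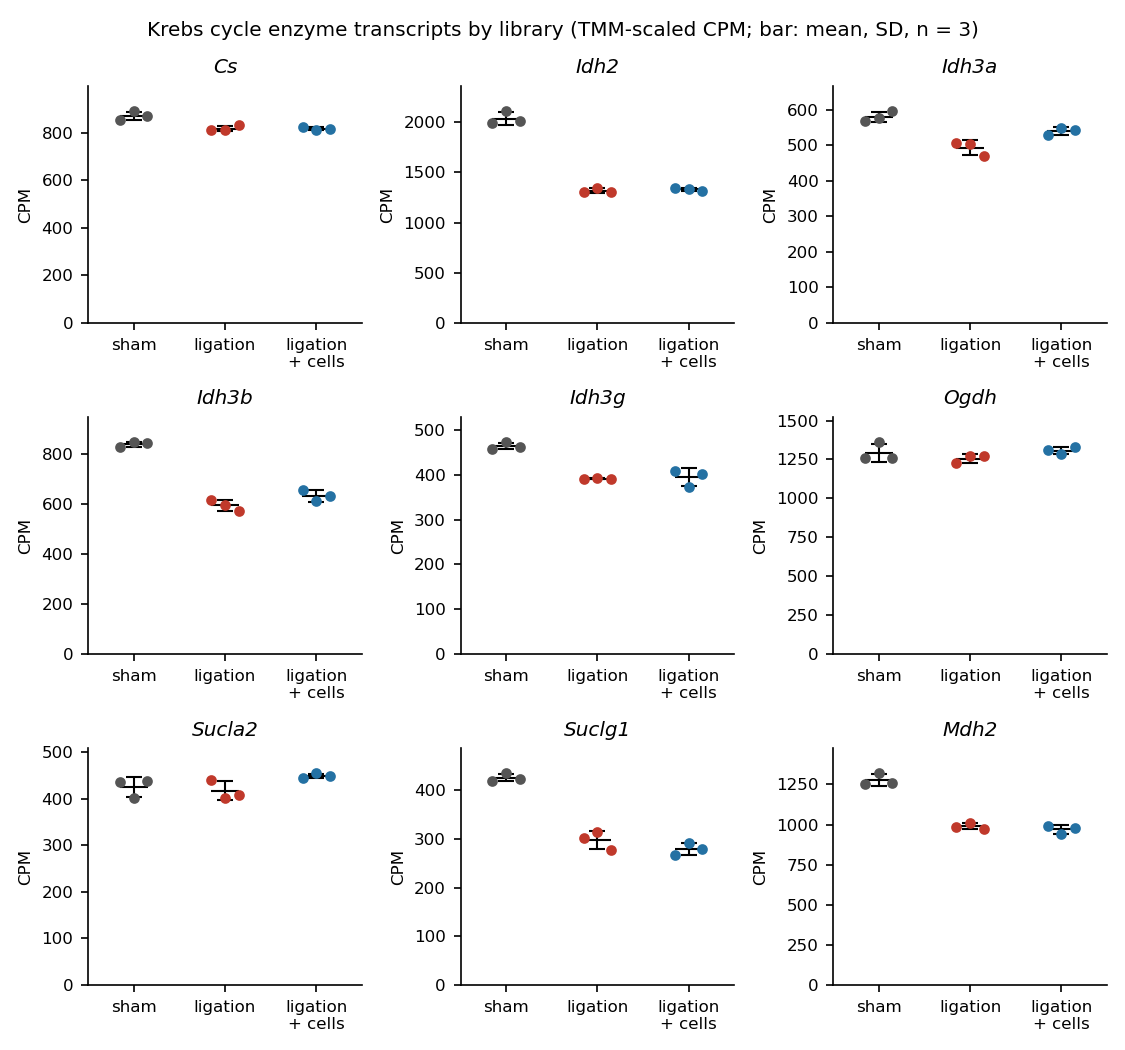
Level of each of the 9 Krebs cycle genes (vertical axis, CPM with TMM factors, from 0) in the sham, ligation, and ligation plus cells groups; points are libraries, and the bar with whiskers is the mean and SD over 3. Idh2, Idh3b, Suclg1 and Mdh2 sit well below sham in both ligated groups, while Ogdh and Sucla2 overlap between sham and ligation; under library totals alone Cs, Ogdh and Sucla2 come out higher after ligation.

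Counting libraries alone, 7 of the 9 genes had all ligation libraries below all sham libraries, against 22.6% of all genes tested. None had all of them above, against 25.0%. Here and in the later comparisons, shares of ranges without overlap are over all genes tested, not over those of similar abundance. Summed, the 9 genes amounted to 8063 to 8407 CPM in sham, 6494 to 6647 in ligation and 6647 to 6775 in the cell group. Ligation libraries thus held 80.1% of the mean sham sum and cell libraries 81.9%. Other cell types' transcripts moved along with these changes. Summed fibroblast markers (7 genes) went from 2208 to 2274 CPM in sham to 3853 to 3960.4 in ligation, and summed macrophage markers (7 genes) from 559.9 to 615 to 1054 to 1090.3. The endothelial markers (7 genes) went the other way, from 2268 to 2378 CPM down to 1561 to 1637. By edgeR 5 of the 7 fibroblast markers were higher and 1 lower, 6 of the 7 macrophage markers higher, all 7 endothelial markers lower, and 7 of the 10 cardiomyocyte markers lower and 1 higher. The part of these shifts in the enzyme results was not tested.

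Sham libraries held the most mitochondrially encoded counts, and some calls depended on the scaling. Library totals alone moved the median log2 fold change of all genes by +0.19 between ligation and sham and by +0.16 between the cell group and sham. Of all genes called in ligation against sham, 2783 were higher and 2494 lower with TMM factors, and 4966 were higher and 1346 lower with totals alone. Of the 9 genes, Idh2, Idh3b, Suclg1 and Mdh2 were called lower under both scalings. With totals alone their log2 differences were smaller, at -0.44, -0.31, -0.33 and -0.18 in that order. With totals taken after removing the mitochondrially encoded genes, the 6 genes called with TMM factors were called lower again, while Ogdh (+0.03) and Sucla2 (+0.05) were not called. A further scale set each gene against the summed cardiomyocyte markers of the same library. Those markers themselves were at 75.6% of sham after ligation, a log2 difference of -0.40, and the median of all genes tested on that scale was +0.41. All 9 genes lay below that median. Taken against 0 on that scale, Idh2 was lower after ligation by a log2 difference of -0.22, Suclg1 by -0.11 and Idh3b by -0.09. On the same scale Sucla2 was at +0.38, Ogdh at +0.36, Cs at +0.31, Idh3a at +0.17 and Idh3g at +0.16, each less than the shift of all genes. The libraries of these 8 genes did not overlap between the groups, 3 lying lower and 5 higher, while on this scale 5.53% of all genes tested lay lower and 60.6% higher with no overlap. For each of them an exact two-sided permutation test gave p = 0.1, the smallest that 3 against 3 libraries allow, and an adjusted p of 0.143 over 60 ratios and comparisons. Mdh2 moved with the markers (+0.04, libraries overlapping).

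**Figure D2:**
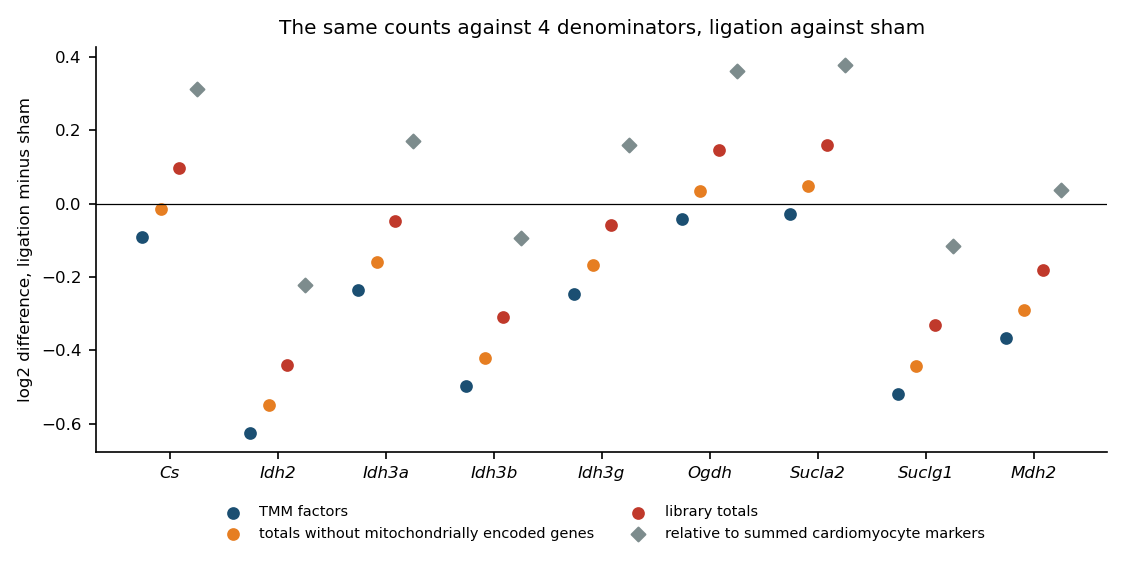
Log2 difference between ligation and sham (vertical axis) for each of the 9 genes against 4 denominators: TMM-scaled libraries, library totals without mitochondrially encoded genes, library totals, and the summed cardiomyocyte markers of the same library. Idh2, Idh3b and Suclg1 lie below 0 under all 4, and the other 6 genes change sign, Idh3a, Idh3g and Mdh2 against the markers alone, where the median of all genes tested is at +0.41.

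A ratio of 2 genes within a library does not depend on the scaling. Of 11 gene-to-gene ratios, 8 did not overlap between ligation and sham. Several of them share a gene, and how often ratios of other gene pairs separate was not examined. Of single genes tested, 22.6% lay lower and 25.0% higher with no overlap. The subunits of the NAD-dependent isocitrate dehydrogenase changed unequally. The Idh3a to Idh3b ratio of counts was 0.687, 0.682 and 0.707 in sham, 0.826, 0.843 and 0.821 in ligation, and 0.805, 0.898 and 0.862 in the cell group. Both ligated groups lay above sham and overlapped each other. The log2 ratio was 0.26 higher in ligation than in sham. Idh3b to Idh3g fell from 1.79 to 1.82 in sham to 1.47 to 1.57 in ligation, a log2 difference of -0.25. Idh3a to Idh3g overlapped between the same groups, at 1.22 to 1.29 in sham and 1.20 to 1.30 in ligation (log2 difference 0.01, exact permutation p = 0.9). Cell libraries had an Idh3b to Idh3g ratio of 1.57 to 1.64, below sham, and an Idh3a to Idh3g ratio of 1.29 to 1.47, above every sham library (log2 difference 0.13) and overlapping ligation. With ligation Idh3b thus shifted against both other subunits, whose ratio to each other overlapped between sham and ligation.

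Within succinyl-CoA ligase, the ratio of Sucla2 to Suclg1 counts was 1.04, 0.925 and 1.04 in sham, 1.46, 1.29 and 1.48 in ligation, and 1.67, 1.56 and 1.61 in the cell group. The groups followed each other in that order with no overlap. The log2 ratio was 0.49 higher in ligation than in sham and 0.20 higher in the cell group than in ligation, comparisons that share the ligation libraries. Suclg2, the beta subunit of the GTP-forming enzyme, went from 0.157 to 0.185 of the Suclg1 count in sham to 0.118 to 0.152 in ligation and 0.178 to 0.225 in the cell group. About 20.7% of the 31-base words of Suclg2 also occur elsewhere in the annotated transcripts, so its counts are uncertain.

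The ratio of Idh2 to its cytosolic counterpart Idh1 was 35.7 to 37.3 in sham, 21.9 to 23.6 in ligation and 20.8 to 22.7 in the cell group. Idh2 therefore fell relative to Idh1 (log2 difference -0.68), whose own level did not pass the test. Mdh2 and its cytosolic counterpart Mdh1 had overlapping ratios between sham and ligation, 0.583 to 0.627 in sham and 0.596 to 0.646 in ligation, while the cell group lay below both at 0.546 to 0.579 (log2 difference -0.09 from sham and -0.14 from ligation). Ogdh to Dlst, which encodes the E2 subunit of the same complex, overlapped as well, at 2.75 to 2.88 in sham and 2.76 to 3.15 in ligation, and was 2.94 to 3.16 in the cell group, above every sham library (log2 difference 0.09). Each ratio that did not overlap had an exact permutation p of 0.1, the smallest possible, and an adjusted p of 0.143.

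**Figure D3:**
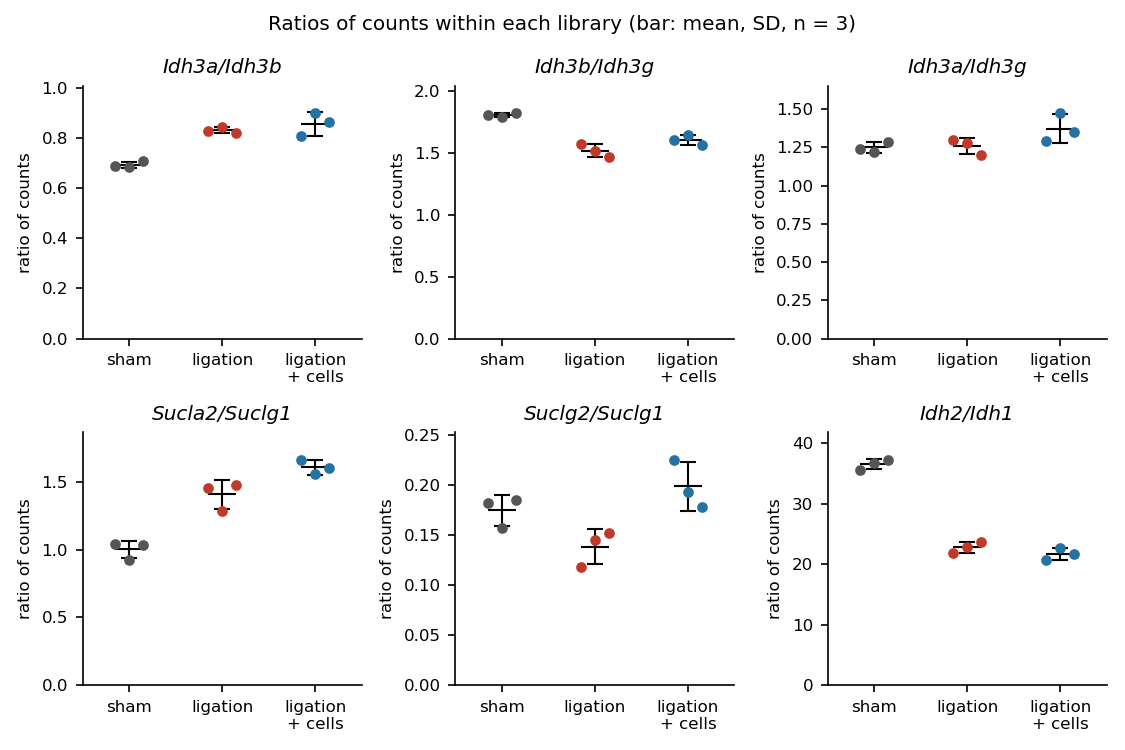
Ratio of counts of 2 genes within each library (vertical axis, from 0) in the sham, ligation, and ligation plus cells groups; points are libraries, and bars are the mean and SD over 3. Idh3a/Idh3b rises from about 0.69 in sham to 0.83 in ligation and Sucla2/Suclg1 from 1.0 to 1.41, while Idh3a/Idh3g overlaps between those groups.

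None of the 9 genes passed the test between the cell group and ligation, where 9.87% of all genes tested did, and 27.6% of those at least as abundant as the lowest of the 9. At an unadjusted p under 0.05 there were 3, all higher with cells: Idh3a, Idh3b and Sucla2. Idh3a had the largest difference, 0.13 ± 0.04 (log2, SE) with a 95% interval from 0.04 to 0.22 and an adjusted p of 0.0654 by edgeR. DESeq2 (adjusted p = 0.0244) and limma-voom (adjusted p = 0.0260) each called that gene and no other of the 9. Idh2 differed by 0.02 (95% interval -0.06 to 0.09) and Cs by 0.00 (95% interval -0.08 to 0.08). Suclg1 differed by -0.09 (95% interval -0.20 to 0.02) and Mdh2 by -0.03 (95% interval -0.11 to 0.05). All libraries of the cell group lay above all ligation libraries for Idh3a, Ogdh and Sucla2, against 13.2% of all genes tested, none had all of them below (14.0% of all genes), and the other 6 genes overlapped. Macrophage markers summed to 434 to 456 CPM in the cell group against 1054 to 1090.3 in ligation, with all 7 lower by edgeR. Neutrophil markers summed to 5.41 to 5.82 CPM against 11.7 to 18.2, with the 3 tested also lower. Of the 7 endothelial markers 2 were higher, and of the 10 cardiomyocyte markers 2 were higher and 2 lower. The part of these markers in the enzyme values was not tested.

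The cell group compared with sham shares its libraries with the comparisons above. Here 5 of the 9 genes were lower and none was higher, where 20.0% of all genes tested were lower, 21.0% higher and 40.9% changed in either direction, and 54.2% of those of similar abundance were lower. All cell libraries lay below all sham libraries for 7 of the 9 genes (24.5% of all genes tested) and above them for Sucla2 (25.4%). Idh2 (-0.61), Suclg1 (-0.61), Idh3b (-0.41), Mdh2 (-0.40) and Idh3g (-0.24) passed on the log2 scale, with adjusted p between 1.69e-11 and 3.27e-04 by edgeR. Idh3a, at -0.10 ± 0.04 (log2, SE; adjusted p = 0.0675), did not pass. Against its ligation value of -0.23 it thus lay nearer to sham, although the difference between the ligated groups did not pass the edgeR test. Cs was at -0.09 (adjusted p = 0.0551), Ogdh at 0.02 and Sucla2 at 0.08. Leaving out ligation library 3, which enters through the shared fit, placed Cs (adjusted p = 0.0215) and Idh3a (adjusted p = 0.0247) past the threshold too, so that 7 were lower. Both were also called lower with upper-quartile factors (Cs 0.0297, Idh3a 0.0406), limma-voom (0.0202 and 0.0353), mitochondrially encoded genes removed (0.0155 and 0.0261) and the libraries that share a header stem summed (0.0407 and 0.0346). Cs alone was added with RLE size factors (0.0454), DESeq2 (0.0399) and without ligation library 1 (0.042). Under library totals alone Idh3g was not called lower (-0.08, adjusted p = 0.196), while Ogdh (+0.17) and Sucla2 (+0.24) were called higher. Sucla2 was called higher also with totals taken after removing the mitochondrially encoded genes (+0.15, adjusted p = 0.0138). Marker sums moved with this comparison too. Cell libraries held 73.3% of the mean sham sum of the cardiomyocyte markers, 165% of that of the fibroblast markers (3658 to 3739 CPM), 73.1% of that of the endothelial markers (1682 to 1716 CPM) and 75.9% of that of the macrophage markers. By edgeR 7 of the 10 cardiomyocyte markers were lower and 1 higher, 5 of the 7 fibroblast markers higher, all 7 endothelial markers lower and 5 of the 7 macrophage markers lower. Their part in the enzyme values was not tested.

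**Figure D4:**
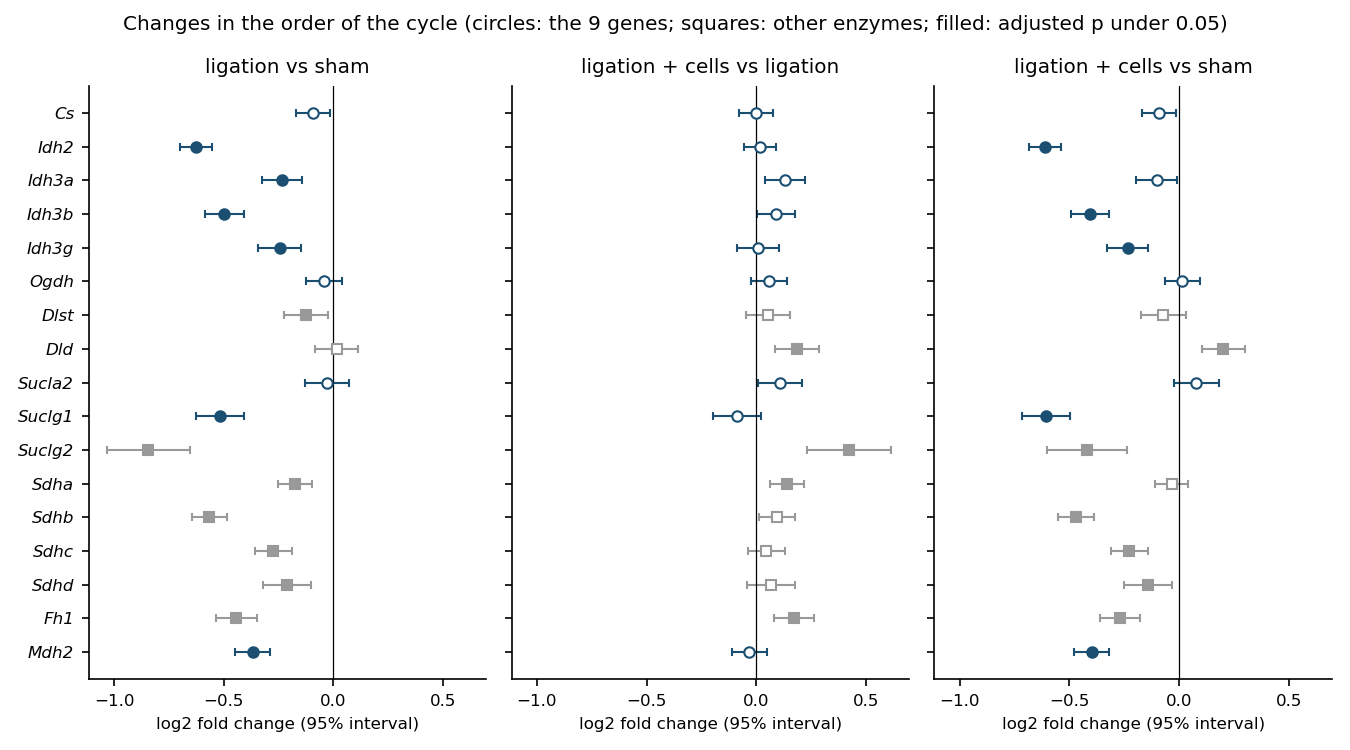
Log2 fold changes (horizontal axis, with 95% intervals) of cycle genes, in reaction order, in 3 comparisons; circles are the 9 genes, squares 8 other enzyme genes, and filled symbols have an adjusted p under 0.05 by edgeR with TMM factors. Idh2 lies near -0.63 and Suclg2 near -0.84 in ligation against sham. None of the 9 genes is filled between the cell group and ligation. Under library totals alone Cs, Ogdh, Sucla2, Dlst and Sdha move to the right of 0 in ligation against sham.

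Levels can be compared between genes only per transcript length. As CPM per kilobase of the principal transcript in sham, Idh2 was highest at 1167 ± 35.9 (SD, n = 3), followed by Mdh2 at 877 ± 24.9 and Idh3b at 518 ± 6.63. Then came Idh3g at 349 ± 5.62, Ogdh at 313 ± 14.0, Cs at 298 ± 6.03, Suclg1 at 280.1 ± 5.14, Idh3a at 241 ± 5.85 and Sucla2 at 191 ± 9.33. The ranges of neighbours in this order did not overlap, though Ogdh (lowest library 304.9) and Cs (highest library 304.1) nearly met. After ligation Ogdh (304 ± 6.52) stood above Idh3g (294 ± 1.15), and Suclg1 (196 ± 12.4) overlapped both Idh3a (205 ± 8.58) and Sucla2 (187 ± 9.26). Idh3b remained the most abundant subunit of its enzyme per kilobase in all 3 groups. The order depends on the length used, and with all annotated exons merged Suclg1 ranked last in sham.

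The sequence before the start of transcription is shown for Idh2, the gene that changed most, for Idh3g, which carries a motif, and for Cs, which did not pass. Sequences are from RefSeq windows on GRCm38, the assembly also called mm10, cut to the longest stretch outside annotated exons. Occurrences of 3 motifs were searched for on both strands in windows of 300 bases around the start: AAGGTCA, the core element of estrogen-related receptors, the palindrome of NRF1, a factor of nuclear genes for mitochondria, and CCGGAAG, bound by ETS factors such as GABPA. Windows were present for 8 of the 9 genes, with 13 windows in all, Idh3a being without one. AAGGTCA was in 1 window, of Ogdh, and in 4.72% of all 32851 windows, CCGGAAG in 2, of Idh3b and Idh3g, and in 8.86% of all, and the NRF1 palindrome in none of the 13 and in 0.971% of all. Capitals mark CCGGAAG.
Idh2 (chr7:80115393-80115600, minus strand): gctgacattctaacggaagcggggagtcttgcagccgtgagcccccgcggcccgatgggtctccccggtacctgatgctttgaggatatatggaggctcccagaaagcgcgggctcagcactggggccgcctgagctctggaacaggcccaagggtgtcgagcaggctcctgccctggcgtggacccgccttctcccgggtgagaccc
Idh3g (chrX:73786898-73787027, minus strand): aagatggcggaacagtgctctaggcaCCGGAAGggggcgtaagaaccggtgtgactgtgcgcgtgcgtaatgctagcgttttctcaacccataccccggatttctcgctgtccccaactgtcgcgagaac
Cs (chr10:128337477-128337733, plus strand): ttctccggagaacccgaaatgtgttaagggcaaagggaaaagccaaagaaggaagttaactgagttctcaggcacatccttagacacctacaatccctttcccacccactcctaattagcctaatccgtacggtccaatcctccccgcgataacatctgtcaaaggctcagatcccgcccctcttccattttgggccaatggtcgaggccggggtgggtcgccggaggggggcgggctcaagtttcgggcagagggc
The motif is in the stretch before Idh3g, and none of the 3 motifs is in those before Idh2 and Cs. Guanine and cytosine make up 66.35% of the Idh2 stretch, 57.7% of the Idh3g stretch and 55.6% of the Cs stretch.

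Of 8 other genes of cycle enzymes, 7 were lower after ligation with TMM factors, none was higher and 1 did not pass. Of all genes tested 18.0% were lower, and 54.7% of those at least as abundant as the lowest of the 9. Suclg2, with a mean of 74.2 CPM in sham, is less abundant than that. Dld, the one that did not pass (0.02), was called higher under library totals alone (+0.20, adjusted p = 0.001). Succinate dehydrogenase, which links the cycle to the respiratory chain, was lower in all 4 subunits with TMM factors, whereas library totals alone kept the call of Sdhb, left Sdhc (-0.09, adjusted p = 0.0808) and Sdhd (-0.02, adjusted p = 0.740) without one and put Sdha at +0.01. Its iron-sulfur subunit Sdhb was at 1032, 1054 and 1025 CPM in sham, 710.4, 711 and 682 in ligation, and 756, 729.6 and 759 in the cell group, and its log2 fold change with ligation was -0.56 (adjusted p = 3.13e-10 by edgeR). The flavoprotein Sdha fell less (-0.17, adjusted p = 8.07e-04). The Sdha to Sdhb ratio was 0.842 to 0.845 in sham, 1.09 to 1.14 in ligation and 1.11 to 1.18 in the cell group. Fumarase, encoded by Fh1, was lower by -0.44 (adjusted p = 9.52e-08). Suclg2 had the largest change, -0.84 (adjusted p = 2.38e-07), with the uncertainty given above. Dlst passed narrowly (-0.12, adjusted p = 0.0492), a call lost without any 1 of sham libraries 1 and 2, ligation libraries 2 and 3 or the cell libraries (adjusted p 0.0551 to 0.175), and reversed to +0.06 under library totals alone.

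Between the cell group and ligation, 4 of these 8 genes were higher and none was lower, where 9.87% of all genes tested changed in either direction and 27.6% of those at least as abundant as the lowest of the 9. Suclg2 was 0.42 higher (log2, adjusted p = 4.13e-03 by edgeR), Dld, the E3 subunit shared by the 2-oxo acid dehydrogenase complexes, 0.19 (adjusted p = 0.0139), Fh1 0.17 (adjusted p = 0.0153) and Sdha 0.14 (adjusted p = 0.0179). Leaving out 1 library ended 3 of these calls. Dld lost its call without ligation library 2 (adjusted p = 0.0826), ligation library 3 (0.0771) or cell library 1 (0.0515). Sdha lost it without ligation library 2 (0.0800) or cell library 1 (0.0614) or 2 (0.0594), and Fh1 without ligation library 3 (0.0595) or cell library 3 (0.0863). Sdha also lost it under library totals alone (0.11, adjusted p = 0.0618), and Dld with the libraries that share a header stem summed (0.0583). With the first cell library alone Dld (0.204), Sdha (0.254) and Fh1 (0.440) were not called. Suclg2 kept its call in each fit that left out 1 library. Against sham, 1 of the 8 was higher in the cell group and 5 were lower. Of all genes tested, 21.0% were higher and 20.0% lower. Among genes at least as abundant as the lowest of the 9, 54.2% were lower. Suclg2, 1 of the 5 lower genes, is less abundant (mean of 74.2 CPM in sham). Sdhd, also lower, lost its edgeR call without sham library 1 (adjusted p = 0.127) or 2 (0.0743) or cell library 1 (0.118) or 2 (0.138). Under library totals alone Sdhc (adjusted p = 0.167) and Sdhd (0.812) were not called, and Sdha was called higher (+0.124, adjusted p = 0.00851).

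Pyruvate entry, a list of 7 genes, had 2 higher and 2 lower after ligation, where 20.1% of all genes tested were higher and 18.0% lower. Pdha1, the catalytic subunit of pyruvate dehydrogenase, was at 254, 249 and 237 CPM in sham, 438, 412 and 410.3 in ligation, and 484, 504 and 462 in the cell group. All groups were separate. Its log2 fold change with ligation was 0.77 (adjusted p = 1.24e-10 by edgeR), while its partner Pdhb changed by -0.46 (adjusted p = 3.02e-08). Both share sequence with other genes, 15.8% and 17.9% of their 31-base words, and Pdha1 overlaps Map3k15 on the other strand. Pcx, pyruvate carboxylase, which refills oxaloacetate, rose from 26.8 ± 1.08 (SD, n = 3) to 49.5 ± 2.39 CPM (log2 fold change 0.89, adjusted p = 2.60e-08). Mpc2, a subunit of the mitochondrial pyruvate carrier, fell by 0.47 on the log2 scale (adjusted p = 1.53e-07). In the cell group against ligation Pdha1 was 0.20 higher (adjusted p = 9.17e-03), a call lost without ligation library 2 (0.0586) or cell library 2 (0.0556) and with the first cell library alone (0.153).

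The kinases that switch pyruvate dehydrogenase off, with the phosphatase subunits that switch it on, form a list of 7 genes, of which 3 were higher and 2 lower after ligation (20.1% and 18.0% of all genes tested). Pdk4, the kinase induced by fatty acid use and fasting, was at 94.3, 97.2 and 89.2 CPM in sham and 106, 95.6 and 92.1 in ligation, which overlap. In the cell group it stood apart at 170.2, 165 and 168 CPM. It was the one gene of the list called between the cell group and ligation (log2 fold change 0.78, adjusted p = 2.13e-08 by edgeR). Pdpr, the regulatory subunit of the phosphatase, rose with ligation by 0.95 (adjusted p = 2.58e-06) and Pdk3 by 1.05 (adjusted p = 2.69e-03), the latter from a mean of 3.39 CPM. Pdk2 fell by 0.36 (adjusted p = 1.76e-05) and Pdp2 by 0.46 (adjusted p = 9.72e-03), and Pdp2 was not called under library totals alone (adjusted p = 0.112) or DESeq2 (adjusted p = 0.0527).

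**Figure D5:**
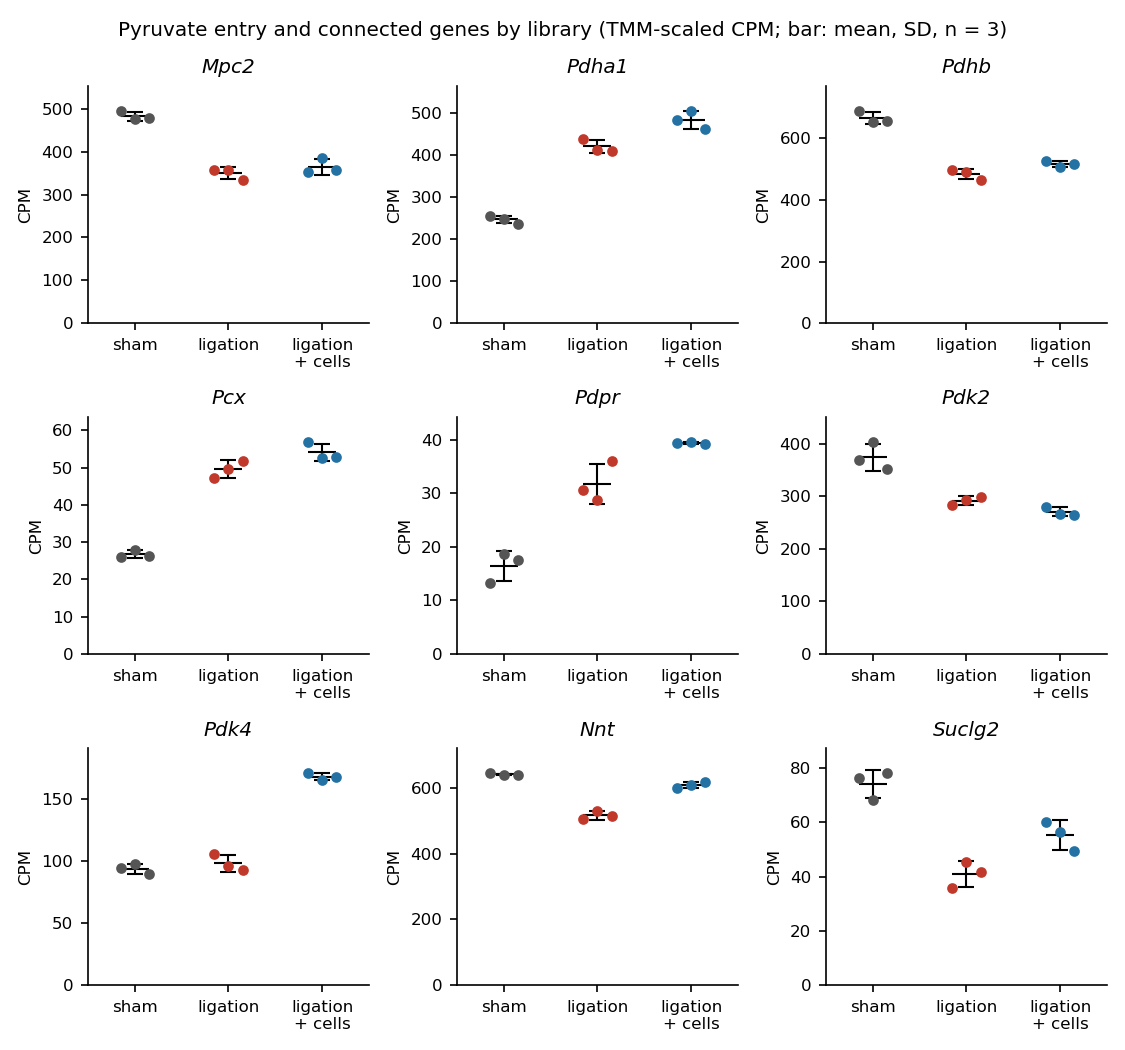
Level of 7 genes of pyruvate entry and its control, and of Nnt and Suclg2 (vertical axis, CPM with TMM factors, from 0), in the sham, ligation, and ligation plus cells groups; points are libraries, and bars are the mean and SD over 3. Suclg2 and Nnt share sequence with other annotated entries. Pdha1 rises and Pdhb falls with ligation, and Pdk4 is highest in the cell group, near 167 CPM against 93.6 in sham.

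Of 10 cytosolic and other counterparts, 9 were tested, 3 being higher and 2 lower after ligation (20.1% and 18.0% of all genes tested). Ogdhl, a relative of Ogdh, fell from 169 ± 4.46 to 99.6 ± 6.04 CPM (SD, n = 3), a log2 fold change of -0.76 (adjusted p = 1.59e-08 by edgeR), and Mdh1 by 0.41 (adjusted p = 1.78e-08). Acly, which turns exported citrate back into acetyl-CoA, rose by 0.50 (adjusted p = 1.97e-05) and by a further 0.43 in the cell group against ligation (adjusted p = 3.74e-04), the latter call being lost with the first cell library alone (0.0501). Me2, a malic enzyme, rose by 0.51 (adjusted p = 7.08e-03), a call lost without ligation library 3 (0.0532). Me1, the cytosolic malic enzyme, was 0.37 higher in the cell group than in ligation (adjusted p = 9.75e-04), a call lost with the first cell library alone (0.120). Its counts are uncertain, since 36.9% of its 31-base words occur in other genes. Csl, a near copy of Cs, had 0 to 3 counts per library, and 5.97% of the 31-base words of Cs occur in other genes.

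Of 15 genes of feeding and side reactions, 14 were tested, with 2 higher and 5 lower after ligation (20.1% and 18.0% of all genes tested) and 2 higher and 2 lower in the cell group against ligation (9.87% of all genes in either direction). Mrps36, a small subunit of the 2-oxoglutarate dehydrogenase complex, fell with ligation by 0.53 (adjusted p = 8.84e-05 by edgeR), with 21.0% of its 31-base words shared, mainly with its pseudogenes. Nnt, the transhydrogenase that makes NADPH from NADH, was at 644, 639 and 639 CPM in sham, 505, 530.0 and 514 in ligation, and 599, 609 and 619 in the cell group. The cell libraries lay between the other groups, and were 0.24 higher than ligation (adjusted p = 4.07e-04), a call lost with the first of them alone (0.0662). The Nnt counts are uncertain too, since another annotated entry of that name overlaps it on the same strand over 3339 bases and 47.8% of its 31-base words are shared. Pck2, the mitochondrial PEP carboxykinase, was lower by -0.69 in the same comparison (adjusted p = 1.04e-03). Of the 4 assembly factors of succinate dehydrogenase, Sdhaf4 (-0.84, adjusted p = 2.48e-05) and Sdhaf1 (-0.94, adjusted p = 0.0246) were lower after ligation, and Sdhaf1 lost its call without sham library 1 (0.107) or 3 (0.0644) or ligation library 3 (0.136), with DESeq2 (0.0706) and with library totals alone (0.0587). Sdhaf1 shares 69.9% of its 31-base words, mainly with E130208F15Rik, which overlaps it on the other strand over 1733 bases. In the cell group against ligation, none of the 4 was called. Over all 6 lists, 49 of 51 genes were tested. Ligation against sham called 10 higher and 20 lower, against 20.1% and 18.0% of all genes tested. The cell group against ligation called 10 higher and 2 lower, against 9.87% of all genes in either direction. The cell group against sham called 14 higher and 17 lower, against 21.0% and 20.0% of all genes.

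Across the 9 libraries, the genes whose centred log2 CPM followed the mean of the 9 Krebs cycle genes most closely were Hrc (Pearson r = 0.998), Acaa2 (0.997), Sdhb (0.997), Atp5b (0.996) and Myh7b (0.996). These correlations are descriptions over 9 libraries that share the groups and the scaling. Among the 9 genes themselves, the correlation with the mean of the other 8 was 0.989 for Idh3b, 0.987 for Idh2, 0.973 for Mdh2, 0.953 for Idh3g, 0.933 for Suclg1, 0.918 for Cs and 0.818 for Idh3a. It was 0.195 for Ogdh and -0.19 for Sucla2, the genes that did not separate sham from ligation.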

How the data were processed

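Per the labels' protocols, RNA came from a TRIzol extraction and the library kit was NEBNext Ultra RNA. Each library has 1 deposited file of raw counts for every gene. The genome build is mm10, per the submitters' processing notes, and the aligner, counter and strand setting are not given in the sources used here. Lines that name no gene (no feature, 4.14% to 4.91%; ambiguous, 8.09% to 8.72%) were left out. Without a strand setting, overlapping genes cannot be told apart. Symbols (53274 of 53465 identifiers), positions and transcripts came from GENCODE M21.

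Counts were analysed in R 4.3.3 with edgeR 4.0.16: filterByExpr, TMM factors, and 1 quasi-likelihood fit of group means across all 9 libraries (6 residual degrees of freedom). P-values, two-sided, were adjusted over 13825 genes with the Benjamini-Hochberg method, and the threshold was 0.05. CPM are scaled with TMM factors. Ratios within libraries were compared with exact two-sided permutation tests. The pipeline was tested on simulated data in which few genes changed, equally up and down. That setting does not test the dependence on scaling. Alternatives were other scalings and filters, DESeq2 1.42.0, limma 3.58.1 (voom), the 2 compared groups alone, a replicate block, mitochondrially encoded genes removed and leaving out each library. Depth was 4549268 to 7515052 gene counts per library. Intervals of fold changes come from the fit, which sees the spread between these libraries.

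The genes, the lists and the tests were chosen with earlier results of these data known. All 9 genes and 8 others of the cycle are named whatever their values. Of the other lists, the genes named are among the up to 2 largest called changes per direction and comparison, and Idh1 and Csl are named as counterparts. The genes named for pattern are the 5 with the highest correlation. Transcripts of the implanted cells were not analysed here, and some results of the listed genes are not reported here.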

Additional observations from a re-analysis of the deposited data

How the results depend on the processing

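Groups of 3 libraries limit what could be detected, and the label mismatch of cell libraries 2 and 3 was not resolved. With library totals alone, the log2 fold changes that turned sign in ligation against sham were Cs 0.096, Ogdh 0.145, Sucla2 0.159, Dlst 0.0622 and Sdha 0.0139. In the cell group against ligation they were Idh2 -0.0129 and Idh3g -0.0186, and in the cell group against sham Cs 0.0665, Idh3a 0.0558, Dlst 0.087, Sdha 0.124 and Sdhd 0.017. Totals without mitochondrially encoded genes gave Ogdh 0.0346 and Sucla2 0.0479 in ligation against sham and Sdha 0.0329 in the cell group against sham. The remaining sign changes were of values near 0. For Cs in the cell group against ligation they were 0.00331 with RLE size factors, 0.000188 without a filter, 0.00566 with DESeq2, 0.00144 with the libraries that share a header stem summed, and 0.0104 with the first cell library alone. The last setting also gave Mdh2 0.00514 in that comparison and Dld -0.00204 in ligation against sham. Idh3g in the cell group against ligation was -0.00158 with upper-quartile factors. Dld in ligation against sham was -9.19e-05 with the 2 groups alone and -0.00142 with mitochondrially encoded genes removed, and Ogdh in the cell group against sham was -0.00143 with the latter. The cause was not tested. Totals alone kept 4131 of the 5277 genes called in ligation against sham.

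Leaving out 1 library at a time, 6 to 7 of the 9 genes were called in ligation against sham, 0 in the cell group against ligation and 5 to 7 in the cell group against sham. The seventh gene was Cs, called without ligation library 3. Of the gene-to-gene ratios, 8 to 9 did not overlap, a count that cannot fall when a library is left out. Signs turned for Ogdh in the cell group against sham (-0.00491 to 0.0512), for Dld in ligation against sham (-0.0285 to 0.0337), and in the cell group against ligation for Cs (-0.00972 to 0.0118) and Idh3g (-0.0161 to 0.0507). The counts over all genes ran from 4482 to 5459, 951 to 1398 and 5055 to 5746 in the same order, and over the pathway lists from 24 to 30, 8 to 13 and 29 to 32.

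In the cell group against ligation, DESeq2 and limma-voom each called 1 of the 9 genes, Idh3a, where edgeR called 0. With the first cell library alone, the pathway genes called there went from 12 to 4 and all genes from 1365 to 485, a lone sample being assumed to vary like the other groups. That setting, the summed libraries and totals without mitochondrially encoded genes were chosen after seeing the data. Deviations of same-numbered libraries correlated between -0.12 and 0.14 over 9414 genes. Libraries with different numbers were not set beside them, so whether replicate numbers mark pairs is not settled. With the replicate block, 6, 0 and 5 of the 9 genes were called, and 5134, 1230 and 5511 of all genes.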

Other observations

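Of 8 nuclear genes of mitochondrial content other than the cycle, 6 were lower and none was higher after ligation by edgeR with TMM factors. Of all genes tested 18.0% were lower, and 54.7% of those at least as abundant as the lowest of the 9 Krebs cycle genes. Not all of the 8 are that abundant, so the last share is not matched to this list. Vdac1 (-0.08) and Immt (-0.03) did not pass. The summed level of the 8 went from 2603 to 2714 CPM in sham to 2157 to 2339 in ligation. In the cell group it was 2406 to 2452 CPM, between the other groups. Of the 8, 4 were higher than in ligation, where 9.87% of all genes changed in either direction. Among genes at least as abundant as the lowest of the 9, 27.6% did, a share again not matched to this list. Of the brown fat markers, the defining gene Ucp1 had 1 count in the 9 libraries together, and the sum, 92.4 to 106 CPM in sham and 72.1 to 83.1 in ligation, is that of Ppargc1a and Cidea. Skeletal muscle markers, which include Ckm and the skeletal actin Acta1, summed to 1558 to 1625 CPM in sham, 1837 to 1906 in ligation and 2451 to 2515 in the cell group. The larger sum is that of Acta1, with means of 948 CPM (sham), 1258 (ligation) and 1838 (cell group). The skeletal myosin Myh4 had 2, 11 and 15 counts in the ligation libraries and 0 in every other library, and Myh1 had at most 7 in any library. The skeletal troponin Tnnt3 had means of 0.821 CPM (sham), 3.02 (ligation) and 0.666 (cell group), and was higher after ligation (log2 fold change 1.80, adjusted p = 7.14e-03 by edgeR) and lower in the cell group than in ligation (-2.12, adjusted p = 8.52e-03). Smooth muscle and pericyte markers summed to 1499.8 to 1549 CPM in sham, 1079.6 to 1103 in ligation and 1094 to 1126 with cells. Neutrophil markers summed to 34.9 to 42.5, 11.7 to 18.2 and 5.41 to 5.82 CPM in the same order.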
